A study of Mus musculus with 4 samples.

Results

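Neural crest regulators and the endothelin receptor gene Ednrb were read on Illumina bead arrays of total RNA from E14, a line of mouse embryonic stem (ES) cells. The genes were chosen by name, with earlier results of these data known: Ednrb, Msx1, Msx2, Sox9, Sox10, Tfap2a, Snai2 and Foxd3. Of these 8 genes, 6 matched a probe, with 10 of the 25697 probes and 6 of the 17876 genes on the array. Tfap2a was found under its older symbol Tcfap2a through its RefSeq accession. Sox10 and Snai2 were not analysed here.

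Each of 4 arrays was 1 group, so no group had a replicate, and no difference between 2 arrays could be set against a spread between replicates. The groups were AKAP95 shRNA cells and scramble shRNA cells, each after retinoic acid (RA) and each undifferentiated. The shRNAs came from viruses in stably infected cells. AKAP95 is the protein of the gene Akap8, and scramble shRNA is the control. Undifferentiated cells had LIF, a cytokine that maintains ES cells, in their medium. LIF was withdrawn for 4 days from the RA-differentiated cells, which as a monolayer then received all-trans RA at 1 µM for another 4 days. RA, the loss of LIF and time in culture therefore cannot be told apart.

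The neural crest is a population of embryonic cells that forms at the border between the neural plate and the surface ectoderm. Signals of the BMP, WNT and FGF families first turn on border genes such as Msx1, Msx2 and Tfap2a there. Specifier genes such as Foxd3, Snai2, Sox9 and Sox10 follow, and the cells then leave the neural tube and migrate. Receptors such as Ednrb act in the migrating cells, which give rise to pigment cells, enteric and sympathetic neurons, glia, and the bone and cartilage of the face.

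The upstream sequences of 3 members are shown because 2 of them, Msx1 and Ednrb, had similar profiles over the arrays while Msx2, the closest relative of Msx1, did not. Each is the 250 bases before a transcription start in RefSeq (GRCm38.p6), 5′ to 3′ on the gene's strand, with every match to the searched motifs in capitals. All 3 lie on the minus strand, at chr5:37824586-37824835 for Msx1, chr13:53472781-53473030 for Msx2 and chr14:103843702-103843951 for Ednrb. The annotated Ednrb gene extends farther upstream than this start.
Msx1: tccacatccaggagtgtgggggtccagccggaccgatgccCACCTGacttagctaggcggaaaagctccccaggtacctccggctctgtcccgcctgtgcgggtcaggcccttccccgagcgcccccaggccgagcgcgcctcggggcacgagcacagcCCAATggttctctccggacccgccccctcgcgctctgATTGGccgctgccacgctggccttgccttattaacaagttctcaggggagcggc
Msx2: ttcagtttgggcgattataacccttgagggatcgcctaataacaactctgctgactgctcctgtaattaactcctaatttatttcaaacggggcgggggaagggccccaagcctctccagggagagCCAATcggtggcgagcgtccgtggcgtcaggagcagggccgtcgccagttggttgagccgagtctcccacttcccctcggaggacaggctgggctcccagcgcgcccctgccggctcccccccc
Ednrb: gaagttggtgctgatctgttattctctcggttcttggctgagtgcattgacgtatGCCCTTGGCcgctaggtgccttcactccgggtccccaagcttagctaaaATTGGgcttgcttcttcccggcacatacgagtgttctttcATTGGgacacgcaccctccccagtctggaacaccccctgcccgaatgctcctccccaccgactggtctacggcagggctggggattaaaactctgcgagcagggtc
The 7 motifs were AGGTCA (a retinoid receptor half-site), GCCNNNGGC (AP-2), CAGGTG (an E-box bound by Snail factors), TAATTG (MSX homeodomain), AACAAT (SOX), TATAAA and CCAAT. They were searched on both strands, and none of the matches shown overlapped another. CCAAT or its reverse stood 91 and 54 bases before the start of Msx1, 124 before Msx2, and 146 and 106 before Ednrb, and was in 33.8% of all 32851 windows of this length. Msx1 also had CACCTG, the reverse of CAGGTG, 210 bases before its start, a motif in 17.2% of windows. Ednrb had the AP-2 motif 195 bases before its start, as had 13.7% of windows. AGGTCA, which is in 14.02% of windows, did not occur in these 3. The share of G and C was 68% for Msx1, 61.6% for Msx2 and 56.8% for Ednrb, against a median of 52.4% over all windows. A match is a description of the letters and does not show a bound site.

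A probe was called detected on an array where the scanner's detection p was under 0.01. Between 11344 and 12156 probes were detected per array, and the median signal lay between 75.1 and 82.8. Akap8, the targeted gene, had a signal of 199.7 in AKAP95 shRNA cells and 297 in scramble cells after RA, and of 139 in AKAP95 shRNA cells and 272 in scramble cells before RA. It was lower with AKAP95 shRNA by 1.70-fold after RA and by 2.28-fold in undifferentiated cells. Signals are given before normalization. Log2 differences and folds were taken after background correction and quantile normalization. Where 1 side was not detected, that side was raised to the lowest detected value of its array, and the difference is a bound, written as "at least". Such a bound holds on the background-corrected scale only, since uncorrected signals of the same probe can give smaller folds. With 1 array per group a size of 2-fold (log2 1) was used as the rule in place of a test. Signals of different probes are not on a common scale, so single probes and sums over a list were compared only with themselves on another array, and bright probes carry the sums.

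Msx1, a homeobox gene of the neural plate border and the dorsal neural tube, had the largest difference of the members between the RA-treated populations. Its signal was 271 in AKAP95 shRNA cells after RA and 2164 in scramble cells after RA. In undifferentiated cells it was 101 in AKAP95 shRNA cells and 94.2 in scramble cells. Its single probe was detected on all 4 arrays, with the RA-treated scramble array far above the other 3. The RA-treated AKAP95 shRNA array was second, and the undifferentiated arrays were close to each other near background. After RA, Msx1 was 10.9-fold lower in AKAP95 shRNA cells than in scramble cells (log2 -3.45), ranked 2 from the lowest among 9397 genes compared. In bulk RNA, fewer cells of a type and less RNA per cell cannot be told apart. In undifferentiated cells the difference was 0.26, in the other direction. The RA difference was 2.86-fold in AKAP95 shRNA cells and 37.4-fold in scramble cells, which in scramble cells was the 13th highest of 9509 genes. Ranks here and below set measured values beside bounds, so genes given as bounds can stand too near 0. For Ednrb the RA bound in scramble cells was log2 4.39, and 5.50 with its undetected value used as measured. Without background correction the log2 RA difference of Msx1 was 0.98 in AKAP95 shRNA cells and 4.19 in scramble cells, in place of 1.52 and 5.23.

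Msx2, which encodes a closely related homeodomain protein of the same border region and of the skull and teeth, had a signal of 101 in AKAP95 shRNA cells and 120 in scramble cells after RA. It was 72.2 in AKAP95 shRNA cells and 66.1 in scramble cells before RA, where it was not detected. After RA, the AKAP95 shRNA cells were 1.36-fold lower (log2 -0.44). The RA difference was at least 1.06-fold in AKAP95 shRNA cells and at least 1.44-fold in scramble cells. Msx2 was thus detected in both RA-treated populations close to background, with no difference of 2-fold between them, while its relative Msx1 differed by 10.9-fold on the same arrays.

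Tfap2a encodes the transcription factor AP-2 alpha, which acts at the neural plate border, in the crest and also in surface ectoderm. Its brightest probe had a signal of 291 in AKAP95 shRNA cells and 290 in scramble cells after RA, and 198 in AKAP95 shRNA cells and 154 in scramble cells before RA. The RA-treated arrays were level with each other (log2 -0.04) and above both undifferentiated arrays. In undifferentiated cells Tfap2a was 1.46-fold higher with AKAP95 shRNA (log2 0.54), the 138th highest of 8734 genes compared. Of those 8734 genes, 95% had a difference of under 0.50 in size. A second Tfap2a probe had 124 in both RA-treated populations, 90.7 in undifferentiated AKAP95 shRNA cells and 83.2 in undifferentiated scramble cells, where it was not detected. On that probe the undifferentiated difference was at least 0.23. The third probe was not detected on any array, with signals between 65.9 and 85.1. The RA difference of the brightest probe was 1.14-fold in AKAP95 shRNA cells and 1.72-fold in scramble cells.

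Sox9, an SRY-box gene that acts in crest formation and in the cartilage lineage, was detected after RA alone. Its signal was 358 in AKAP95 shRNA cells and 461 in scramble cells after RA, against 50.7 in AKAP95 shRNA cells and 47.6 in scramble cells before RA. Both RA-treated arrays stood well above both undifferentiated arrays. The RA difference was at least 5.95-fold in AKAP95 shRNA cells and at least 8.23-fold in scramble cells. Between the RA-treated populations Sox9 was 1.38-fold lower in AKAP95 shRNA cells (log2 -0.47), below the 2-fold rule.

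Foxd3, a forkhead gene of premigratory crest that also acts in ES cells, was not detected on any array. Its probe read 51.9 in AKAP95 shRNA cells and 64.0 in scramble cells after RA, and 61.8 and 57.4 in AKAP95 shRNA and scramble cells before RA. These values are at background and have no order.

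Ednrb encodes the endothelin B receptor, which enteric neuron and pigment cell precursors need for their migration and survival. It was read from 3 probes, of which 2 were detected on at least 1 array. The brightest had a signal of 172 in AKAP95 shRNA cells and 1093 in scramble cells after RA, and 57.4 and 56.4 in undifferentiated AKAP95 shRNA and scramble cells. It was detected on both RA-treated arrays and on neither undifferentiated array. The second probe had 87.5 in AKAP95 shRNA cells and 354 in scramble cells after RA, with 56.3 and 60.7 in undifferentiated AKAP95 shRNA and scramble cells. It was detected in RA-treated scramble cells alone, and its detection p in RA-treated AKAP95 shRNA cells was 0.0125. The third probe read between 59.5 and 64.6 on the 4 arrays and was not detected. Both probes that detected Ednrb put the RA-treated scramble array highest.

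After RA, Ednrb was 9.01-fold lower in AKAP95 shRNA cells by its brightest probe (log2 -3.17), ranked 5 from the lowest among the 9397 genes, and at least 7.08-fold lower on the corrected scale by the second. With the mean of its 3 probes the log2 difference was -2.01. The brightest probe's RA difference was at least 2.33-fold in AKAP95 shRNA cells and at least 20.98-fold in scramble cells on the corrected scale. Without background correction the log2 bound in scramble cells was 3.25. In AKAP95 shRNA cells the bound was under 2-fold without background correction (log2 0.65) and with an offset of 50 (0.82). It was also under 2-fold with the deposited ratios (0.90). With the undetected value used as measured, the log2 difference there was 2.31 on the corrected scale. With the mean of all 3 probes the bound was 0. In the authors' deposited table, where each value is relative to undifferentiated scramble cells, the brightest Ednrb probe was at 2.81 in RA-treated AKAP95 shRNA cells and at 17.6 in RA-treated scramble cells. The authors' deposited table puts the second Ednrb probe, with no background correction, at 1.33 in RA-treated AKAP95 shRNA cells and at 5.31 in RA-treated scramble cells. In the same authors' deposited table Msx1 was at 2.65 and 20.9 in RA-treated AKAP95 shRNA and scramble cells.

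**Figure D1:**
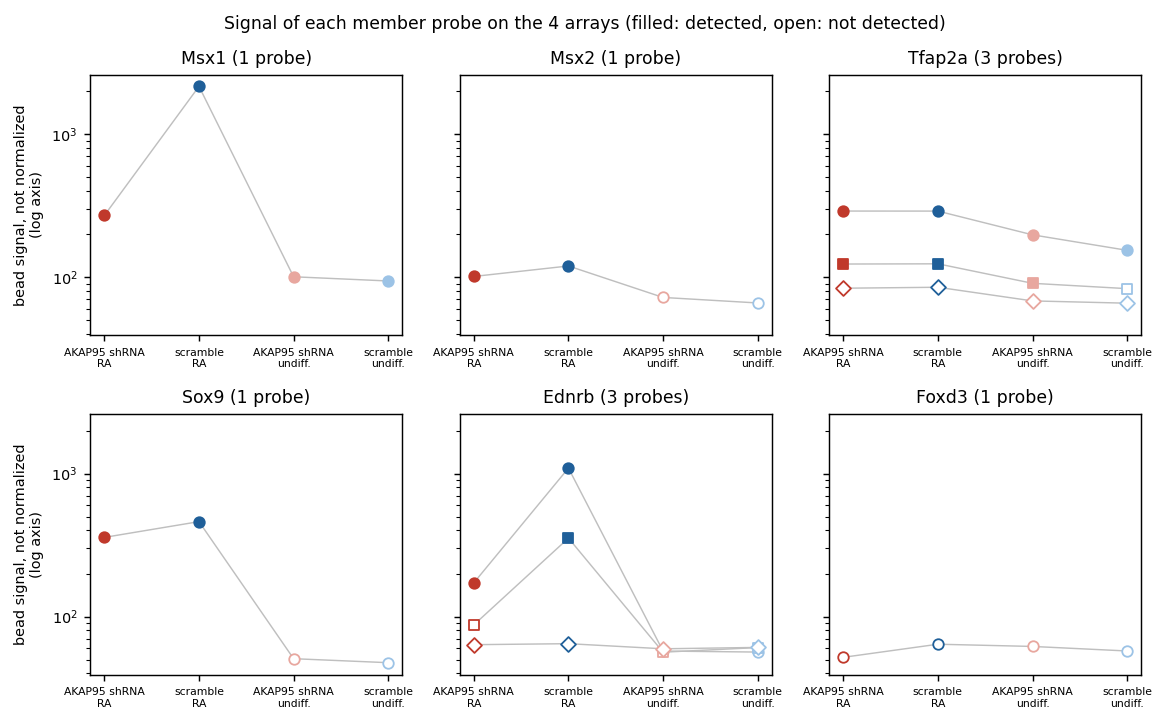
Signal before normalization (log axis) of each probe of 6 genes on the 4 arrays, 1 point per array, with grey lines joining the points of a probe; filled points were detected. Msx1 and 2 of the 3 Ednrb probes stand highest in RA-treated scramble cells, while Sox9 is detected in both RA-treated populations alone. The brightest Tfap2a probe is level between the RA-treated arrays and less than 2-fold above the undifferentiated ones, and Foxd3 is at background.

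After RA, 2 of the 5 detected members, Msx1 and Ednrb, were past 2-fold downward in AKAP95 shRNA cells and 0 upward. Of all genes compared, 3.26% were past 2-fold downward and 3.17% upward. Because the members were chosen with earlier results known, the shares given here and below describe the arrays and do not test the members. The members' median was -0.47, and that of all genes 0.00. All 5 members had a value below 0, with Tfap2a at -0.04 and between -0.05 and 0.02 over the settings tried. In undifferentiated cells 0 of the 2 members compared, Msx1 and Tfap2a, were past 2-fold, where 0.126% of all genes were lower and 0.0687% higher. The other 3 were not detected in either undifferentiated population, so no knockdown difference could be given for them there.

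RA gave 3 of 5 members a value higher by at least 2-fold in AKAP95 shRNA cells, Msx1, Ednrb and Sox9, and 0 a lower one. Of all genes, 12.4% were higher there and 9.82% lower. The same 3 of 5 were higher in scramble cells, where 14.2% of all genes were higher and 11.8% lower. Ednrb, Sox9 and Msx2 entered these comparisons through the RA-treated arrays alone, so that their direction was fixed by the filter on detection. Without background correction Msx1 was at 0.98 in AKAP95 shRNA cells, just under the rule. The bound of Ednrb was 0.65 there, and Sox9 alone stayed above the rule. Msx2 passed 2-fold in scramble cells when its undetected value was used as measured (1.37) or with a detection p under 0.05 (1.00).

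**Figure D2:**
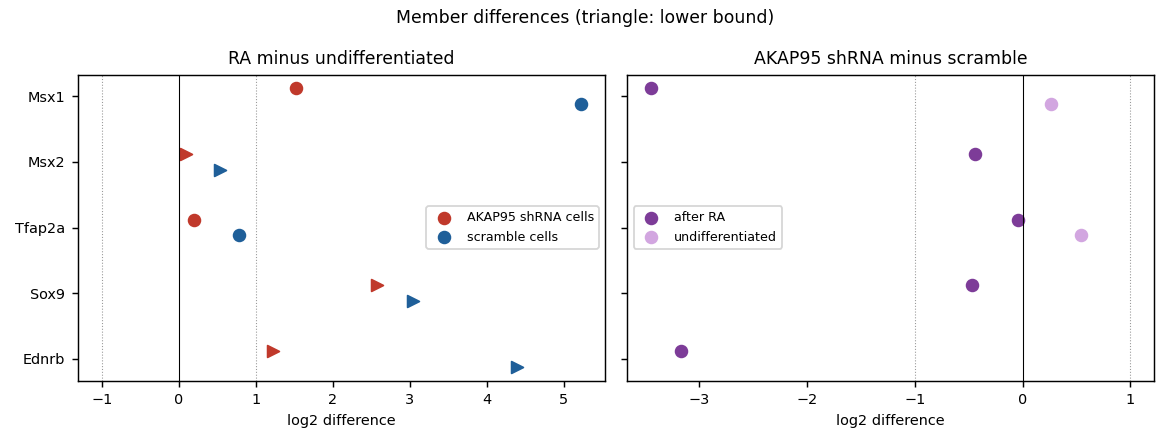
Log2 differences of the 5 detected members, RA minus undifferentiated in each population on the left and AKAP95 shRNA minus scramble in each state on the right; triangles are lower bounds and dotted lines mark 2-fold. Msx1 and Ednrb lie at -3.45 and -3.17 in the right panel after RA, and the other 3 members lie between -0.47 and -0.04.

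An additive limma model with shRNA and RA as terms was fitted over the 4 arrays to 9875 genes, with Benjamini-Hochberg adjustment over all of them. Its 1 residual degree of freedom holds noise together with any difference between the RA effects of the 2 populations. In this model 3 of the 5 members rose with RA, where 18.8% of all genes rose and 16.2% fell. Sox9 rose by 4.02 (standard error 0.21; limma adjusted p = 0.00949), Ednrb by 3.91 (standard error 0.83; limma adjusted p = 0.0368) and Msx2 by 1.01 (standard error 0.24; limma adjusted p = 0.0467). Msx1 was at 3.37 with a standard error of 0.96 and Tfap2a at 0.49 with a standard error of 0.22, and neither passed (limma adjusted p = 0.0665 and 0.161). The model uses measured values without bounds, so the sizes for Ednrb, Sox9 and Msx2 rest in part on values at background. These 3 were detected on the RA-treated arrays alone, so the filter fixed the direction of their calls, and the 2 members detected on all 4 arrays did not pass. The same holds for genes of the lists below that were detected after RA alone, and their limma counts are descriptions. The Msx2 call was lost without background correction (limma adjusted p = 0.0785) and with an offset of 50 (0.0619), and the Ednrb call with the mean of all probes (0.0577). Msx1 passed with median scaling (0.0499) and with the deposited ratios (0.0219), as did Tfap2a with the deposited ratios (0.0346). For the shRNA term of the limma model, 0 of the 9875 genes passed, and 405 had an unadjusted p under 0.05. In it Msx1 was at -1.59 and Ednrb at -1.58 (limma adjusted p = 0.818 for both), and the other 3 members were between -0.22 and 0.25.

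The RA difference in AKAP95 shRNA cells less that in scramble cells, which uses all 4 arrays and has no error of its own, was -3.71 for Msx1 and -3.17 for Ednrb. They ranked 2 and 5 from the lowest among 9875 genes, of which 3.06% were past 2-fold downward and 3.15% upward. It was -0.59 for Tfap2a, -0.47 for Sox9 and -0.44 for Msx2. For Ednrb, Sox9 and Msx2 it takes the undifferentiated arrays at their lowest detected value, so that it nearly equals the knockdown difference after RA. For Tfap2a it combines a difference of 0.54 in undifferentiated cells with one of -0.04 after RA.

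**Figure D3:**
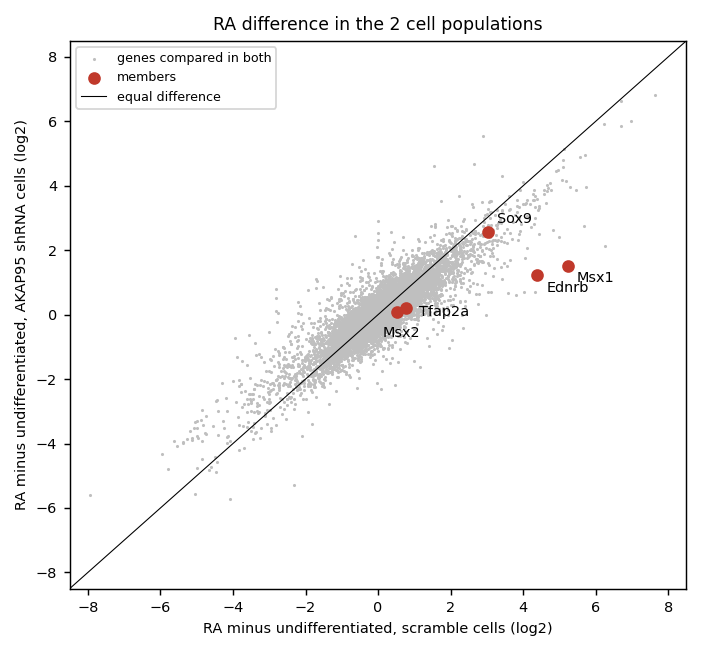
RA minus undifferentiated difference (log2) of each gene compared in both populations, scramble cells on the horizontal axis and AKAP95 shRNA cells on the vertical axis, with the line of equal difference. Sox9, Tfap2a and Msx2 lie near the line, and Msx1 (5.23 in scramble cells and 1.52 in AKAP95 shRNA cells) and Ednrb lie below the main body of genes.

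Profiles over the 4 arrays were compared with those of 9870 other detected genes by the Euclidean distance of log2 values centred on each gene's mean. With 4 arrays this describes 4 numbers per gene. For Ednrb, Hoxd3, Dbx1, Epha3, Col26a1, Ptn and Nefm the 2 undifferentiated values are at background, so the order of close distances is uncertain. The 5 genes nearest to Msx1 were Hoxd3 (distance 0.26), Epha3 (0.55), Dbx1 (0.61), Nefm (0.83) and Fgfbp3 (0.86). Hoxd3 is a patterning gene of the hindbrain and trunk, Epha3 an ephrin receptor gene, Dbx1 a homeobox gene of the developing spinal cord, Nefm a neurofilament gene of neurons and Fgfbp3 a gene of an FGF-binding protein. The 5 nearest to Ednrb were Dbx1 (0.34), Col26a1 (0.56), Hoxd3 (0.62), Epha3 (0.83) and Ptn (1.05), the last a secreted growth factor gene. Msx1 and Ednrb were 0.59 apart, and for each of them 2 of the other genes were nearer than that. Hoxd3 had a signal of 129 in AKAP95 shRNA cells and 743 in scramble cells after RA, and 59.4 and 56.7 in undifferentiated AKAP95 shRNA and scramble cells. Dbx1 had 176 in AKAP95 shRNA cells and 1091 in scramble cells after RA, and 58.2 and 69.7 before.

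**Figure D4:**
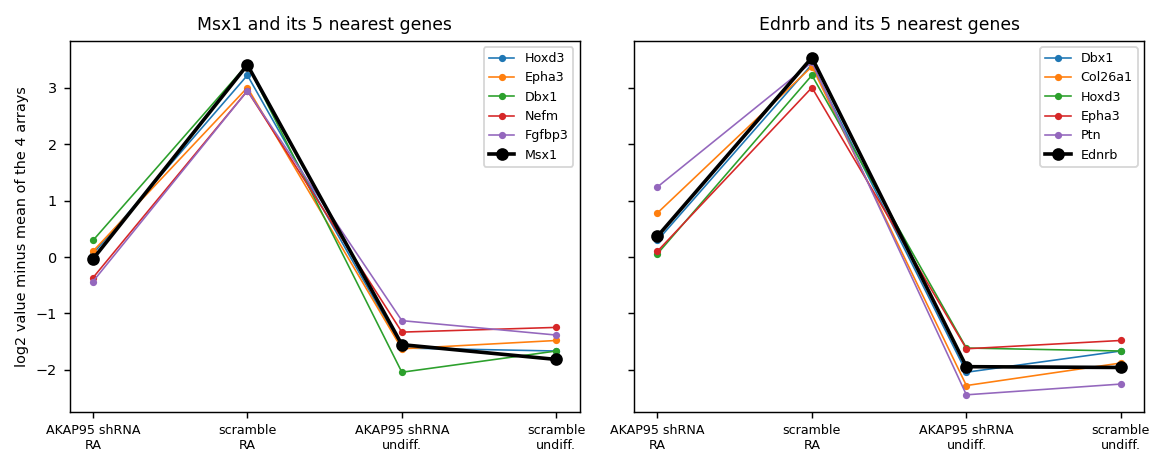
Log2 value on each array minus the gene's mean over the 4 arrays, for Msx1 (left) and Ednrb (right) in black and the 5 nearest genes of each in colour; lines only join the points of a gene. Every gene shown peaks in RA-treated scramble cells and stands lower in RA-treated AKAP95 shRNA cells. The nearest genes were chosen on these same arrays, so this shared shape follows from the choice.

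Genes of the endothelin pathway were taken from a list of 10 that includes Ednrb, of which 7 were detected. After RA, Ednrb and 2 more of the 7 were past 2-fold downward in AKAP95 shRNA cells and 0 upward. Of all genes, 3.26% were lower by this rule and 3.17% higher. The median of the 7 was -0.87 with Ednrb included, and the other genes had values on both sides of 0. Ednra, the endothelin A receptor gene of crest-derived mesenchyme and vascular muscle, had a signal of 540 in AKAP95 shRNA cells and 1106 in scramble cells after RA, 2.24-fold lower. Before RA it was at 58.9 and 59.4 in AKAP95 shRNA and scramble cells and not detected. Ece1, which encodes the enzyme that makes mature endothelin, had 278 in AKAP95 shRNA cells and 504 in scramble cells after RA, 2.11-fold lower. In undifferentiated cells it was at 279.6 in AKAP95 shRNA cells and 421 in scramble cells (log2 -0.59). The ligand gene Edn1 differed the other way, with 256 in AKAP95 shRNA cells and 184 in scramble cells (log2 0.56), below the rule. The G protein genes Gnaq and Gna11, through which the receptors signal, were at 0.02 and 0.33. In the limma model 4 of the 7 genes rose with RA, Ednra, Ednrb, Gnaq and Ecel1, and 0 fell, against 18.8% and 16.2% of all genes. Of these 4, Gnaq (1.21; limma adjusted p = 0.0187) was detected on all 4 arrays, and the other 3 after RA alone, so that they could be called in that direction only.

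Of 27 other factors of the neural plate border and the crest, 17 were detected. After RA, 3 of 16 compared were past 2-fold downward in AKAP95 shRNA cells and 1 upward, with a median of -0.64. For this list and those below, the shares of all genes were 3.26% downward and 3.17% upward. Zic1, a zinc finger gene of the border and dorsal neural tube, was 8.30-fold lower, at 95.1 in AKAP95 shRNA cells and 447 in scramble cells. Zeb2, a repressor needed for crest migration, was 3.38-fold lower. Tfap2b, a relative of Tfap2a in the crest, was 2.50-fold lower, at 462 in AKAP95 shRNA cells and 1052 in scramble cells. Tfap2c, another relative, which also acts in trophoblast and germ cells, was 2.58-fold higher, at 1291 in AKAP95 shRNA cells and 536 in scramble cells. Before RA it was brighter, at 1666 in AKAP95 shRNA cells and 1724 in scramble cells. Its RA difference was -0.57 in AKAP95 shRNA cells, below the rule, and -1.93 in scramble cells, past 2-fold downward. The AP-2 genes thus had values on both sides, with Tfap2a at -0.04. The bHLH gene Twist1 (-0.76) and Snai1 (-0.61), both linked to the loss of epithelial adhesion, were below the rule, as were Ets1 (-0.70) and Id2 (-0.71). In limma 9 of the 17 rose with RA and 3 fell, with Tfap2b at 4.64 and Meis2 at 4.32 the highest and Gbx2 at -2.94 the lowest. The limma counts of this list and those below stand against 18.8% of all genes that rose and 16.2% that fell. In undifferentiated cells 0 of 13 were past 2-fold.

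Of 13 genes of signals that induce crest, 7 were detected, and with AKAP95 shRNA 3 of these 7 were past 2-fold downward after RA and 0 upward (median -0.76). Wnt1, a ligand of the dorsal midline, was at least 5.13-fold lower on the corrected scale, with uncorrected signals of 67.3 in AKAP95 shRNA cells and 269 in scramble cells. Wnt3a, expressed beside it, was at least 2.75-fold lower and the Notch ligand gene Dll1 was 2.77-fold lower. Bmp4 was at -0.76 and Bmp7 at -0.68. In limma Wnt6, Bmp7 and Notch1 rose with RA, and 0 of the 7 fell.

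Among 20 migration receptors and adhesion genes, 11 were detected, and with AKAP95 shRNA 1 of 10 compared was past 2-fold downward after RA and 0 upward (median -0.62). This was the chemokine receptor gene Cxcr4, 3.47-fold lower, at 135 in AKAP95 shRNA cells and 342 in scramble cells. The other 9 lay between -0.91 (Cdh2, a bound) and 0.71 (Cdh1, the epithelial cadherin gene). In limma 7 of the 11 rose with RA, with the semaphorin co-receptor gene Nrp1 at 4.63, and 1 fell, the neurotrophin receptor gene Ngfr (-1.85).

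Markers of crest derivatives were detected in part. Of 8 melanocyte genes with a probe, 1 was detected in RA-treated AKAP95 shRNA cells and 0 in RA-treated scramble cells. The genes detected before RA, Mlana and Pmel, both fell with RA in limma (-2.13 and -1.87). Of 10 genes of Schwann and satellite glia, 4 were detected in each RA-treated population, and 0 of 5 compared were past 2-fold between them, with Mbp at 0.17. Of 11 genes of autonomic and enteric neurons, 4 were detected in AKAP95 shRNA cells and 6 in scramble cells after RA. The nicotinic receptor gene Chrna3 was at least 6.66-fold lower in AKAP95 shRNA cells and the zinc finger gene Insm1 3.77-fold lower. Th and Dbh, which encode enzymes of catecholamine synthesis, were not detected on any array. Of the 18 genes of crest mesenchyme and cartilage with a probe, 7 were compared after RA, and Foxd1 (2.54-fold) and Foxc2 (2.02-fold) were lower in AKAP95 shRNA cells. Col2a1, a collagen gene that SOX9 is known to activate, had 1107 in AKAP95 shRNA cells and 1795 in scramble cells (log2 -0.79), and it rose with RA in limma (3.90; limma adjusted p = 0.0103).

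**Figure D5:**
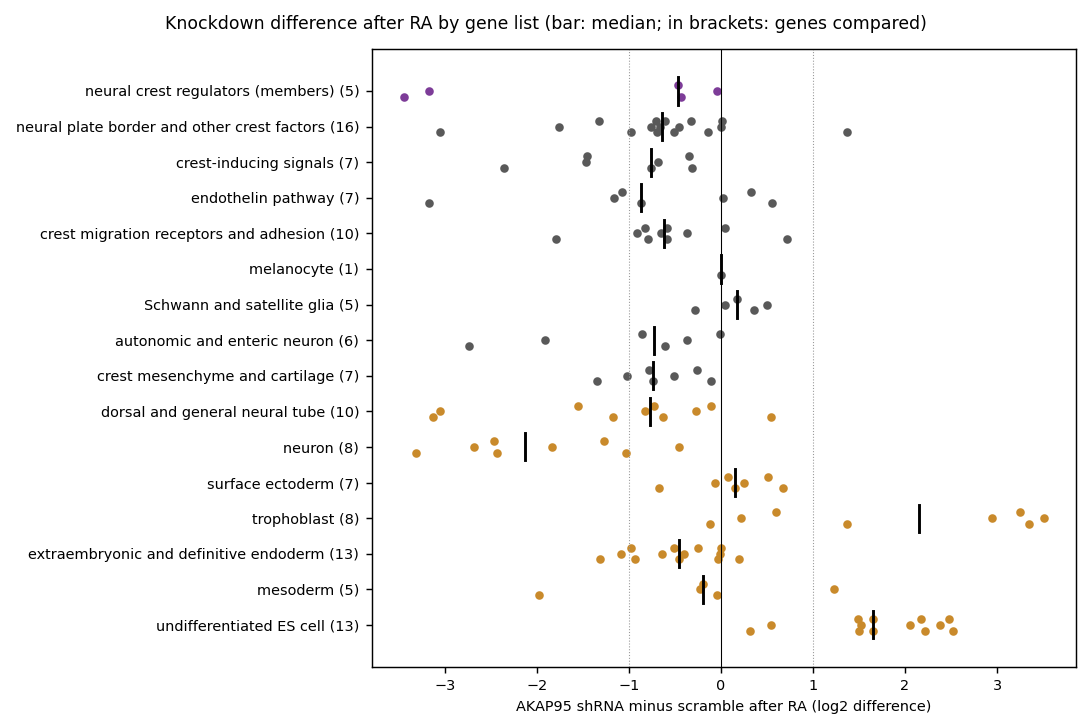
Log2 difference after RA, AKAP95 shRNA minus scramble, of each gene compared in each list, 1 point per gene, with the median as a bar. The members run from -3.45 to -0.04, the neuron list has a median of -2.13, and the trophoblast and undifferentiated ES cell lists have medians of 2.16 and 1.65.

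Markers of other cell types also differed between the RA-treated populations. In AKAP95 shRNA cells 7 of 8 neuron genes were past 2-fold downward and 0 upward (median -2.13), led by Nefm (9.98-fold), Stmn2 (6.42-fold), Gap43 (5.51-fold) and Dcx (5.41-fold). The summed signal of the 10 neuron markers was 1374 in AKAP95 shRNA cells and 3657 in scramble cells after RA, and 3164 and 2862 in undifferentiated AKAP95 shRNA and scramble cells. Stmn2 carried most of the undifferentiated sums, with 2290 in AKAP95 shRNA cells and 1917 in scramble cells, and fell with RA in limma (-3.80; limma adjusted p = 0.0339). Of 10 neural tube genes compared, 4 were past 2-fold downward, Dbx1 (8.73-fold), Zic1, which is on 2 lists, Neurog2 (at least 2.93-fold) and Irx3 (2.26-fold), and the summed signal of all 16 was 2611 in AKAP95 shRNA cells and 4934 in scramble cells. The neural tube markers Sox1, Sox3, Pax6, Atoh1 and Neurog1 were not detected on any array. Of 13 undifferentiated ES cell genes, 11 were past 2-fold upward in AKAP95 shRNA cells and 0 downward, led by Dppa4 (5.75-fold), Dnmt3l (at least 5.59-fold), Klf2 (5.20-fold) and Lefty1 (4.64-fold), with a summed signal of 18908 in AKAP95 shRNA cells and 5649 in scramble cells over 15 markers. Of 8 trophoblast genes compared, 5 were past 2-fold upward, Tfap2c of the border list among them, and 0 downward. They were led by Prl2b1 (at least 11.4-fold), Prl3b1 (at least 10.2-fold), Ctsj (9.49-fold) and Ctsq (7.69-fold). Tfap2c was brighter before RA, as given above. Krt7 (0.60), Cdx2 (0.22, a bound) and Elf5 (-0.12, a bound) were below the rule. Eomes and Ascl2 were not detected after RA, and Hand1, Gcm1 and Tpbpa were not detected on any array. The 13 markers summed to 5397 in AKAP95 shRNA cells and 1934 in scramble cells. The part of these cell type differences in the values of Msx1 and Ednrb was not tested.

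The other marker lists differed less after RA. Of 7 surface ectoderm genes, 0 were past 2-fold (median 0.15), with a summed signal of 12771 in AKAP95 shRNA cells and 10307 in scramble cells over 10 markers. Of 13 endoderm genes, Gata6 (2.48-fold) and Sox17 (2.13-fold) were lower and 0 higher, and the 16 markers summed to 10324 in AKAP95 shRNA cells and 15047 in scramble cells. Of 5 mesoderm genes, Meox1 was 3.93-fold lower and Pecam1 2.33-fold higher, with 4851 in AKAP95 shRNA cells and 5653 in scramble cells over 14 markers. Pecam1 had 161 in AKAP95 shRNA cells and 91.8 in scramble cells after RA, and 425 in each undifferentiated population. In undifferentiated cells 0 genes of the 16 lists were past 2-fold between the populations, with Lefty1 just inside the rule at -0.99 (611 in AKAP95 shRNA cells and 1272 in scramble cells), and the ES cell markers summed to 112412 in AKAP95 shRNA cells and 113999 in scramble cells.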

How the data were processed

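RNA of 4 arrays, 1 per group by title, was analysed. Per the file headers, the deposited intensity is an average bead signal per probe with a detection p-value, also deposited. The scanner software's version and background subtraction are not given in the sources used here. The authors' deposited ratio is the intensity over its array's median, and a further deposited ratio is relative to undifferentiated scramble cells.

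Here, background correction and quantile normalization followed limma's neqc (limma 3.58.1, R 4.3.3), with negative controls inferred from detection p-values and an offset of 16 before log2. Later steps used Python 3.11.15, numpy 2.4.6 and pandas 2.3.3, with matplotlib 3.10.9. Gene symbols were updated through RefSeq (GRCm38.p6), 23876 probes (92.9%) by accession, 728 by symbol and 710 by a unique synonym. Each gene was read from its probe with the highest mean. A bound that would point against the detected side was set to 0. The additive limma fit was tried on simulated data in which RA changes were equal in both populations. These data held no difference between the RA effects, unlike the values of Msx1 and Ednrb, so they do not test the fit there. The genes named are the 8 members, Akap8, up to 4 genes per list past 2-fold with the largest size, and the 5 nearest profiles of Msx1 and Ednrb. Further genes named with values below the rule were chosen after their values were seen. The members and lists were chosen with earlier results of these data known. The number of arrays limits precision.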

Additional observations from a re-analysis of the deposited data

Results flagged for a closer look

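The sign of the knockdown difference was not the same in the 2 states for 2 members. Msx1 was at -3.45 after RA and at 0.26 in undifferentiated cells. Tfap2a was at -0.041 after RA and at 0.54 in undifferentiated cells. With the deposited ratios its value after RA was 0.015, so its sign there is not settled. With 1 array per group the difference between the states was not tested.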

How the results depend on the processing

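The knockdown difference after RA kept its direction and its side of 2-fold for Msx1 (between -3.45 and -2.99), Ednrb (between -3.17 and -2.01), Msx2 (between -0.44 and -0.21) and Sox9 (between -0.47 and -0.35) under the alternatives tried. For Msx1, Msx2 and Sox9, with 1 probe each detected on both arrays, the mean of all probes, the detection threshold and the bound could not change this value. Without background correction 1 of 5 members was past 2-fold with RA in AKAP95 shRNA cells, and with the deposited ratios 5 of 5 members passed limma for RA, in each case in place of 3. The cause was not tested.

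Counts over all genes moved by more than 1.5 times under some settings. After RA the knockdown gave 298 genes higher and 306 lower, against 135 and 146 without background correction, 188 and 183 with an offset of 50, and 187 and 158 with the deposited ratios. In undifferentiated cells it gave 6 higher and 11 lower, against 3 and 1 without background correction, 3 and 3 with an offset of 50, 3 and 4 with the deposited ratios, 7 lower with the mean of all probes, 10 higher with a detection p under 0.05, and 20 and 24 without bounds. RA in AKAP95 shRNA cells gave 1178 higher and 936 lower, against 748 and 565 without background correction, and 470 lower with the deposited ratios. RA in scramble cells gave 1124 lower, against 702 without background correction and 694 with the deposited ratios. The difference of the RA effects gave 311 higher and 302 lower, against 148 and 130 without background correction, 192 and 174 with an offset of 50, and 202 and 135 with the deposited ratios. The share of higher genes in the RA difference of AKAP95 shRNA cells was 55.7%, and 70.9% with the deposited ratios, which put the median of all genes at 0.11. In undifferentiated cells the share of higher genes was 35.3%, 75% without background correction and 50% with an offset of 50, over few genes. No paired analysis was possible because each group held 1 array and the labels give no replicate number. Differences of low signals, such as Msx2, are limited by background.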
